A study of Drosophila melanogaster with 4 samples.

Results

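The core genes of ubiquitin and SUMO conjugation were followed in *Drosophila melanogaster* larvae mutant for *ash2*, a trithorax group gene. Proteins of this group act on chromatin and keep genes transcribed. The 9 genes were taken by name from the steps that lead a protein to the proteasome or to the related modifiers SUMO and Nedd8. They are *Ubi-p5E*, *Ubi-p63E*, *Uba1*, *eff*, *ben*, *TER94*, *Sumo*, *lwr* and *Nedd8*, out of 12058 genes named in the probe annotation used. Of the 9, 6 had a named probe, each with 1 probe, and all 6 gave at least 1 value. Only *Ubi-p5E*, *Ubi-p63E*, *Sumo* and *Nedd8* had a value in both mutant extractions. *ben* had values in extraction 1 only and *TER94* in extraction 2 only, while *Uba1*, *eff* and *lwr* were not analyzed here because no probe carried their name.

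The mutant larvae had the genotype *w1118*; +; *ash2I1*, and their stock was kept over the balancer TM6c, from which the mutants were picked as Tb+ larvae. They were set against a pool of *w1118*; +; + larvae of an isogenic line, which also gave the mutants their X, Y and second chromosomes. Both thus carry *w1118*, whereas the third chromosome of the mutants, with *ash2I1* on it, had not been exchanged. All were whole larvae of the third instar, early wanderers staged by the blue dye of their food. Total RNA of the mutant came from 2 extractions, each amplified and hybridized to 2 two-color arrays against the 1 wild-type pool. The number of larvae per extraction is not given in the sources used here.

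In the ubiquitin pathway an activating enzyme (E1) charges ubiquitin, a conjugating enzyme (E2) carries it, and a ligase (E3) joins it to a substrate, which the proteasome may then degrade. SUMO and Nedd8 are small proteins related to ubiquitin that are attached through enzymes of the same kinds. Ubiquitin itself is made as precursors, either as head-to-tail repeats (polyubiquitin) or fused to a ribosomal protein, and deubiquitinating enzymes cut it free.

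Each value below is a log2 ratio that likely reads mutant over wild type, because in the labels Cy5 marks the *ash2I1* sample of every array and limma, used by the authors, takes Cy5 over Cy3 by convention. A value below 0 is then lower in the mutant, and were the direction the other way, every sign below would turn. By these labels no array had the dyes exchanged, so an effect of dye on a gene cannot be told apart from one of genotype. The table held between 1108 (array 4) and 3513 (array 3) values per array out of 16416 probes, and a spot without a value had been removed by the quality filters of the authors, so an empty value is not a level of 0. Probes correlated with r = 0.957 between the arrays of extraction 1, 0.848 between those of extraction 2, and from 0.647 to 0.809 across extractions. No probe of *ash2* itself gave a value, so the mutation could not be checked in these data.

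The ubiquitin precursor gene *Ubi-p5E* stood lowest of the measured core genes, and every tested core gene had a mean below 0. Among all array values of the core genes, 15 of 16 were below 0, against 48.0% of the array values of all genes. These 16 values come from 6 genes and 2 extractions whose arrays share an RNA, so they are not independent. The genes were also chosen with earlier results of these data known, so the count is a description only. The 1659 genes of the series with a value in both extractions were tested with limma, which shares the spread across genes, and a gene was called where its adjusted p was under 0.05 and the change 2-fold or more. None of the 4 tested core genes was called in either direction, and 2 of them (*Ubi-p5E* and *Sumo*) had an unadjusted p under 0.05, both lower, against 273 of all tested genes (16.5%) that were lower at that p. Over all tested genes 6.63% were called, and 2.83% were called lower in the mutant. With the adjusted p alone 1 of 4 core genes passed, against 4.7% of all tested genes that passed and were lower. The median of the 4 core genes was -0.36, beside 0.01 over all tested genes.

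*Ubi-p5E*, a polyubiquitin gene on chromosome X, had log2 ratios of -1.45 and -0.81 on the arrays of extraction 1 and of -1.18 and -0.29 on those of extraction 2. All 4 were below 0, and the arrays of one RNA differed more than the means of the extractions, which were -1.13 and -0.74. The mean was -0.93 ± 0.16 (SE, n = 2), or 1.91-fold lower in the mutant, with a 95% interval of -1.37 to -0.50. Its adjusted p in limma was 0.0429, so the gene passed the test and missed the 2-fold limit. On arrays 1 to 3 between 2.08% and 5.98% of all values lay below that of *Ubi-p5E*, and on array 4 this share was 24.0%. Of the tested genes, 69 (4.16%) had a lower mean. Without array 4 it passed both limits, with -1.15 and an adjusted p = 0.029, whereas it no longer passed the test without array 2 (-1.09, adjusted p = 0.079) or without array 3 (-0.71, adjusted p = 0.287). It also missed the test narrowly with arrays brought to a common median absolute deviation (adjusted p = 0.0517) and with a single probe for each gene (adjusted p = 0.050).

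*Ubi-p63E*, the other polyubiquitin gene, lies on arm 3L, on the chromosome that carries the mutation. It had log2 ratios of -0.25 and -0.26 in extraction 1 and of -0.51 and 0.08 in extraction 2. The arrays of extraction 1 hardly differed, while those of extraction 2 lay on either side of 0. Its mean of -0.24 ± 0.13 (SE, n = 2) was not distinguished from 0 (adjusted p = 0.267, limma), with a 95% interval of -0.58 to 0.11.

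*Ubi-p5E* was lower than *Ubi-p63E* on 4 of 4 arrays, by log2 differences of -1.20, -0.55, -0.67 and -0.37. Averaged over the extractions, the log2 ratio of *Ubi-p5E* minus that of *Ubi-p63E* was -0.70 ± 0.25 (SD, n = 2), with -0.87 in extraction 1 and -0.52 in extraction 2. An exact test over 2 extractions cannot give a two-sided p below 0.5, so this difference is given as a description. The repeats of polyubiquitin genes are nearly identical in sequence, and a probe within them may read more than 1 gene. Where the probes lie in the genes was not examined, so it is not known whether either value belongs to its named gene alone.

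The other source of ubiquitin is a pair of genes that encode it fused to a ribosomal protein. *RpL40* had log2 ratios of -0.11 and 0.03 in extraction 1 and of -0.17 in extraction 2, with a mean of -0.11 ± 0.13 (SE, n = 2; adjusted p = 0.599, limma). *RpS27A* had 0.03 and -0.02 in extraction 1 and 0.19 and 0.02 in extraction 2, with a mean of 0.05 ± 0.13 (adjusted p = 0.792). Both straddled 0. Of the 4 measured precursor genes, *Ubi-p5E* alone passed the adjusted p, and none was called. The difference between fusion and polyubiquitin genes was not tested.

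**Figure D1:**
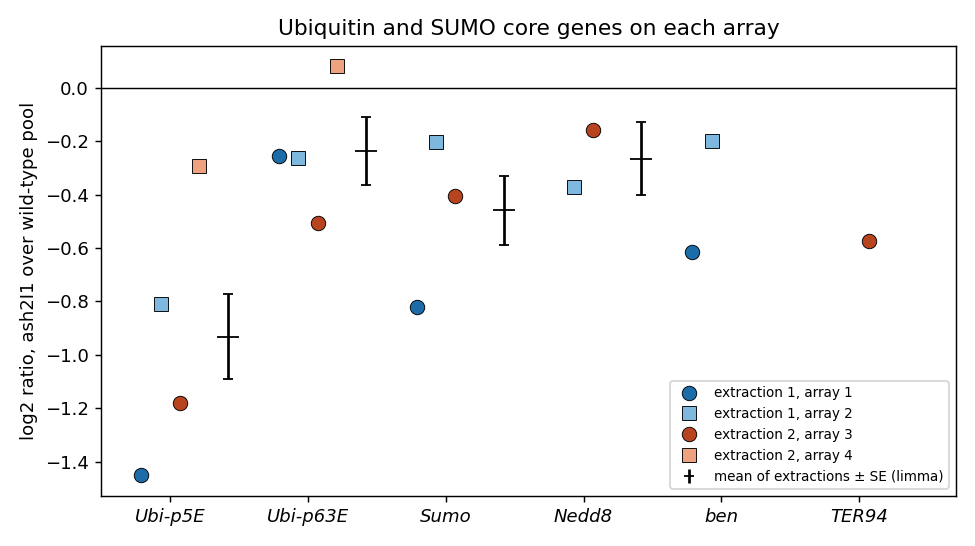
Log2 ratio of mutant over wild-type pool (y axis) of the 6 measured core genes (x axis). Points are single arrays, colored by extraction, and the black bar is the mean of the extractions with its limma standard error (n = 2), drawn only for genes with a value in both. The points of *Ubi-p5E* run from -1.45 to -0.29, and the only point above 0 is that of *Ubi-p63E* on array 4.

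*Sumo* encodes the small modifier that is joined to many nuclear proteins. Its log2 ratios were -0.82 and -0.20 on the arrays of extraction 1 and -0.40 on array 3 of extraction 2. All 3 were below 0, and the widest gap lay between the arrays that shared 1 RNA. The mean of -0.46 ± 0.13 (SE, n = 2), with a 95% interval of -0.81 to -0.10, had an unadjusted p of 0.0224 and did not pass after adjustment (adjusted p = 0.0968, limma). Over 11 alternative settings this adjusted p ran from 0.0673 to 0.130. The E1 of SUMO is made of 2 subunits, encoded by *Aos1* and *Uba2*, and both were measured. *Aos1* had -0.74 and -0.44 in extraction 1 and -0.26 in extraction 2 (mean -0.42 ± 0.15, adjusted p = 0.141), and *Uba2* had -0.11 on array 2 and -0.03 on array 3 (mean -0.07 ± 0.13, adjusted p = 0.728). The 3 tested genes of the SUMO list, of 10 listed, all had means below 0, and none passed. The E2 of this pathway, encoded by *lwr*, was among the genes with no named probe.

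*Nedd8*, whose product activates the cullin ligases, rested on 1 array per extraction, with -0.37 on array 2 and -0.16 on array 3. Its mean of -0.26 ± 0.14 (SE, n = 2) did not pass (adjusted p = 0.253, limma), with a 95% interval of -0.64 to 0.11. Among the tested genes of the list of Nedd8 enzymes, cullins and the COP9 signalosome, which takes Nedd8 off cullins, 5 of 6 were below 0 and none passed. The lowest was *alien*, which encodes a COP9 subunit, with -0.50 ± 0.18 (adjusted p = 0.147), and the highest was the cullin gene *Cul2*, with 0.37 ± 0.22 (adjusted p = 0.307). *Roc1a*, for the RING subunit that works with cullins, had -0.88, -0.29 and -0.36 on arrays 1 to 3 (mean -0.47 ± 0.14, adjusted p = 0.102).

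The last measured core genes could not be tested. *ben* encodes the E2 known as Ubc13 and had log2 ratios of -0.61 and -0.20 on the arrays of extraction 1. Its E2-like partner *Uev1A* was tested, with -0.73, -0.50 and -0.26 on arrays 1 to 3 and a mean of -0.44 ± 0.15 (SE, n = 2; adjusted p = 0.139, limma). *Uev1A* was the lowest of 6 tested genes in the list of conjugating enzymes, which includes it. *Ubc7* was the highest with 0.20 ± 0.13 (adjusted p = 0.357), and none passed. *TER94* encodes the ATPase p97 (VCP), which pulls ubiquitin-tagged proteins out of membranes and complexes, and its single value was -0.57 on array 3, where 12.6% of all values were lower. Its cofactor *Ufd1* had -1.005 on array 1 and -0.58 on array 3, with a mean of -0.79 ± 0.16 (adjusted p = 0.0562). In 3 of 9 refits *Ufd1* passed the test, with adjusted p-values from 0.0362 to 0.0472, and it stayed short of 2-fold. The shuttle factor *Rad23*, whose product carries ubiquitin-tagged proteins to the proteasome, had a mean of -0.54 ± 0.13 (adjusted p = 0.0723). Of 5 tested genes in the list of *TER94* cofactors and shuttle factors 4 were below 0, *Der-1*, a gene of degradation at the endoplasmic reticulum, was at 0.18 ± 0.13 (adjusted p = 0.364), and none passed.

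**Figure D2:**
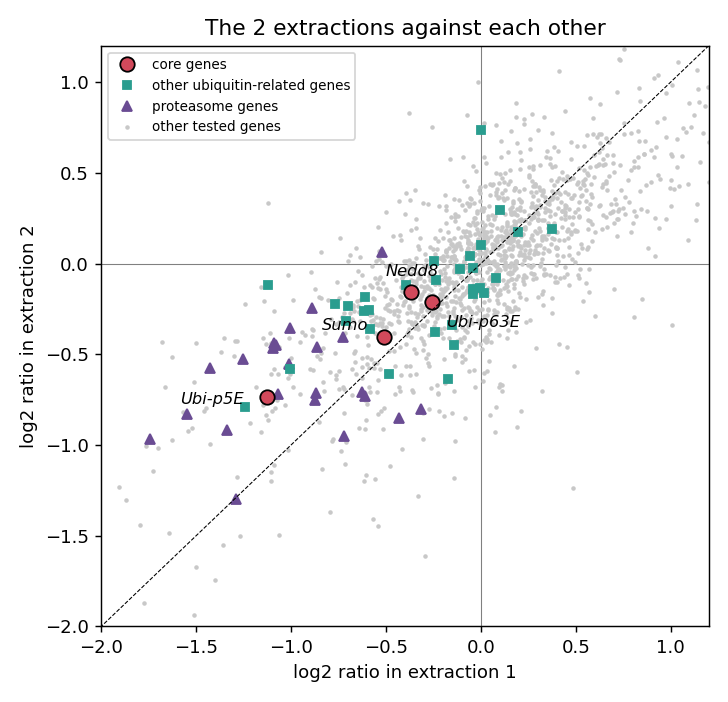
Log2 ratio in extraction 1 (x axis) against that in extraction 2 (y axis), each the mean of the arrays of that extraction, for the tested genes. Gray points are other genes, squares the other ubiquitin-related genes, triangles proteasome genes and circles the 4 tested core genes, the dashed line marks equal values, and 114 genes outside -2 to 1.2, none of them in these groups, are not shown. The 4 circles lie below 0 in both extractions, with *Ubi-p5E* at -1.13 and -0.74 among the triangles.

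Beyond the core, 159 further genes of ubiquitin and its relatives were listed, of which 70 had a value and 31 were tested. Of these 31, 1 was called lower in the mutant, none was called higher, and 30 did not pass, beside 2.83% called lower among all tested genes. At an unadjusted p under 0.05 there were 8 of the 31 (25.8%) below 0 and none above, against 16.5% of all tested genes below 0. Their median was -0.25, and 80.6% had a mean below 0, against 49.1% of all tested genes. The called gene was *Usp14*, for a deubiquitinating enzyme that in mammals binds the proteasome. It had -1.48 and -1.001 on the arrays of extraction 1 and -0.79 on array 3 of extraction 2, with a mean of -1.02 ± 0.17 (SE, n = 2), or 2.02-fold lower (adjusted p = 0.0425, limma). This call sat at both limits. It was lost under the same scaling (adjusted p = 0.051) and the same choice of a single probe (adjusted p = 0.050), without array 2 (adjusted p = 0.0741) and without array 1, where the log2 ratio was -0.90, and without array 3 the gene could not be tested.

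Deubiquitinating enzymes had the lowest median of the lists upstream of the proteasome with more than 1 tested gene, at -0.46 over 6 tested genes, all below 0. Next to *Usp14* stood *Uch*, a gene of the ubiquitin C-terminal hydrolases, with -1.40 and -0.84 in extraction 1 and -0.41 and 0.17 in extraction 2. Its extractions disagreed, and its mean of -0.62 ± 0.28 (SE, n = 2) did not pass (adjusted p = 0.200, limma). *scny*, for a further enzyme of this class, had -1.78 and -0.84 on the arrays of extraction 1 and no value in extraction 2. *Usp5* was nearest to 0, with -0.09 ± 0.13 (adjusted p = 0.650). In the list of ubiquitin ligases and substrate receptors, 16 of 41 genes had a value and only 4 were tested. The lowest of these was *poe*, the fly counterpart of mammalian UBR4, with -0.47 ± 0.17 (adjusted p = 0.145). The highest was *Diap2*, a RING-finger inhibitor of apoptosis, with 0.28 ± 0.13 (adjusted p = 0.224). The 4 tested genes of this list had a median of -0.04. The 6 tested genes of the list of conjugating enzymes, *Uev1A* included, had one of -0.08, and none of either list passed. Of 4 listed genes of E1 and E1-like enzymes, none had a value. *Atg8a*, for the ubiquitin-like protein of autophagy, was the only tested gene of the remaining modifiers, at -0.26 ± 0.14 (adjusted p = 0.280).

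**Figure D3:**
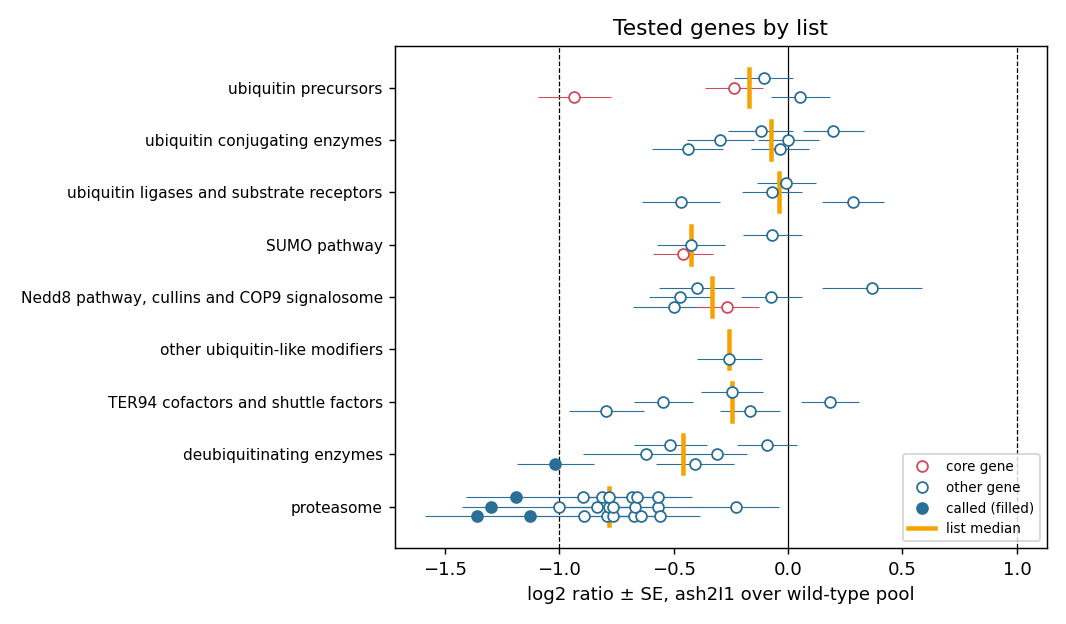
Log2 ratio of mutant over wild-type pool with its limma standard error (x axis, n = 2) for each tested gene, by list (y axis). Core genes are red, called genes are filled, orange bars are list medians, and dashed lines mark 2-fold changes. Medians run from -0.04 for ligases and substrate receptors to -0.46 for deubiquitinating enzymes and -0.78 for the proteasome, which holds 4 of the 5 called genes.

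The proteasome itself lay lower than the steps before it. All 23 tested genes of its list had a mean below 0, with a median of -0.78, and 4 were called lower (*Prosalpha1*, *Rpn5*, *Rpt4* and *Rpn1*, with log2 ratios from -1.36 to -1.13), beside 2.83% of all tested genes. Of these calls *Rpn5* held in all 11 refits that measured it, whereas the other 3 were lost in at least 1, and the count was 2 without array 1, 1 without array 2 and 0 of 9 without array 3. *Rpn12* stood in the middle of them, at -0.78 ± 0.20 (SE, n = 2; adjusted p = 0.0827, limma). The proteasome genes ran from -1.36 to -0.23, and *Ubi-p5E* fell among them. The upper end was a single gene whose extraction 2 rested on array 4 alone, and the next highest was at -0.56. *Sumo*, *Nedd8* and *Ubi-p63E* lay above every proteasome gene but that highest one. These lists share the same slides and the same pool, but their genes do not all have values on the same arrays. The difference between the lists was not tested.

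Among the 277 other genes with a value on all 4 arrays, the values most like those of *Ubi-p5E* were those of *RN-tre*, *Prosbeta4*, a proteasome gene, and *Akap200*, with root-mean-square log2 differences of 0.07, 0.23 and 0.23 over the 4 arrays. For *Ubi-p63E* they were *CG5885*, the catalase gene *Cat* and *UK114*, each at 0.16. Likeness over 4 arrays of 1 comparison ranks genes by similar ratios and no more.

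The study asked whether changed genes lie close together on chromosomes, so the tested genes on either side of the core genes were read. The nearest tested gene after *Ubi-p5E* on chromosome X was the proteasome gene *Rpt4*, at -1.19 ± 0.22 (SE, n = 2; adjusted p = 0.048, limma) with 5 annotated genes between them that were not tested. The nearest tested gene on the other side, *CG3566*, was directly adjacent and had -0.13 ± 0.15 (adjusted p = 0.582). *Sc2*, adjacent to *Ubi-p63E*, had -0.37 ± 0.13 (adjusted p = 0.141), and the nearest tested gene on the other side had -0.18 ± 0.14. On arm 2L the nearest tested genes of *Sumo*, *Nha1* and *CG43322*, had -0.17 and 0.38, and those of *Nedd8*, *CG10602* and *Bhmt*, had -0.38 and -0.86, none of them called. The next tested gene after *CG43322*, *Pcp*, with 7 annotated genes between it and *Sumo*, was called lower at -1.44 (adjusted p = 0.0338). The other tested genes second in line from a core gene ran from -0.30 to 0.40, and none was called. The neighbors read were the 2 nearest tested genes on each side of each of the 4 tested core genes. Of them only *Rpt4* and *Pcp* were called, both lower, beside 2.83% called lower among all tested genes. *Rpt4* is also among the proteasome genes counted as called above.

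Differences between the arrays of 1 extraction were not particular to the core genes. Over 1818 probes on arrays 1 and 2 the slope of array 1 on array 2 was 1.43. Of 521 probes under -0.2 on array 2, 430 (82.5%) were lower still on array 1. Among them were *Ubi-p5E* and *Sumo*, the latter just under this limit at -0.204 on array 2. *Ubi-p63E* was not among them, with -0.263 on array 2 and -0.253 on array 1. Of 311 probes under -0.2 on array 4, 198 (63.7%) were lower on array 3, among them *Ubi-p5E*. For 1301 of the 1659 tested genes extraction 2 rested on array 3 alone, whereas for *Ubi-p5E* and *Ubi-p63E* it rested on arrays 3 and 4. Means and list medians are thus not all drawn from the same arrays. Whether this, or the spread between arrays, shapes the means above was not tested.

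Whole larvae hold many tissues, and in such samples fewer cells of a type and less RNA per cell cannot be told apart. Of 3 measured fat body markers 2 were called lower, *Lsp2* at -2.11 and *Fbp1* at -1.46, with *Fbp2* at 0.01. Of 8 midgut markers 2 were called higher, at 1.10 and 1.73. The means of this list ran from -0.31 to 3.45, and its highest gene was not called (adjusted p = 0.164, limma). The 3 tested muscle markers lay between 0.09 and 0.46 with none called. Among all 1659 tested genes 2.83% were called lower, and 63 genes were called higher. Both measured salivary gland markers were below 0 (*Sgs4* at -0.74 and *Sgs5* at -2.78), neither was called, and of 5 nervous system markers only *elav* had a value, on 1 array. The part of these shifts in the values of the core genes was not tested.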

How the data were processed

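RNA of *ash2I1* larvae and of a wild-type pool was measured on 4 two-color arrays, as 2 extractions of 2 arrays. The authors scanned the slides with GenePix Pro 6, removed spots below quality thresholds, corrected the background with normexp, normalized with OLIN within and between arrays, and fitted limma. The deposited values are the log2 ratios so normalized, with removed spots empty. Neither log base nor direction is written in the file, and both were taken from the convention of limma and the dyes in the labels. Scanner files and probe sequences were not used here, so no signal level or depth per spot is known. The precision is limited by the 2 extractions and the 1 wild-type pool.

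Of 16416 probes, 13164 had 1 gene symbol, 101 several and 3151 none in the platform annotation, and names were updated through the Release 6 gene table, mostly by gene identifier (12533 probes). That table served for names, chromosome arms and gene order only. Probes with 1 gene were averaged per gene and array, then per extraction. The 1659 genes with a value in both extractions were tested against 0 with limma 3.58.1 in R 4.3.3 (moderated variances, Benjamini-Hochberg adjustment over all 1659), so that n = 2 and the spread of the wild-type pool is left out. Calls required an adjusted p under 0.05 and a change of 2-fold or more. The fit was also run on simulated data with planted changes. Array noise there was drawn independently, without the slopes between arrays given above, so that run does not measure the precision in these data. Tables were made with Python 3.11.15, pandas 2.3.3, NumPy 2.4.6 and SciPy 1.17.1.

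The members and lists were chosen with earlier results of these data known. Named genes were the core genes, the called, highest and lowest genes of each ubiquitin-related list, the lowest, middle and called proteasome genes, and the genes most like a core gene. *RpL40*, *Aos1*, *Roc1a*, *Cul3*, *Cul5*, *Rad23*, *Uch*, *scny*, *Pcp*, the tissue markers and the other neighbors were named after their values were seen. Alternatives covered arrays as separate values, the extraction as a random block, the genes kept, the scaling, the probe rule, the moderation, the call rule and each array left out.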

Additional observations from a re-analysis of the deposited data

How the results depend on the processing

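The log2 ratios of the 4 tested core genes kept their sign in all 46 refits, and the call changed in 1 of them, for *Ubi-p5E* without array 4. The adjusted p of *Ubi-p5E* stayed under 0.05 in 9 of 13 refits, and those of the other core genes in none. Without 1 array at a time its log2 ratio ran from -1.15 to -0.71, and with the adjusted p alone it passed at -0.93. Called core genes numbered 0 to 1 without 1 array and 1 with the adjusted p alone. Called lower among 35 ubiquitin-related genes, core included, were 1 in the fit reported, 0 with genes on all 4 arrays, with arrays brought to a common median absolute deviation and with a single probe for each gene, 2 with the adjusted p alone, and 0 to 2 without 1 array. At an unadjusted p under 0.05 limma gave 2 of 5 tested genes with genes on all 4 arrays. It gave 9 of 35 with scaled arrays and 9 of 35 with a single probe. Without array 1, 2 or 3 it gave 10 of 25, 7 of 32 and 0 of 5 tested genes, and each of these also left 0 called. *Usp14*, the gene called in the fit reported, was not tested with genes on all 4 arrays or without array 3. Proteasome genes called lower numbered 4 in the fit reported, 1 with genes on all 4 arrays (6 tested), 2 with scaled arrays, 2 with a single probe, 8 with the adjusted p alone, and 0 to 5 without 1 array. Over all genes the count of 110 was 49 of 278 with genes on all 4 arrays, 168 with the adjusted p alone, and 0 to 123 without 1 array. The lowest came without array 3, which left 358 genes, 67 of them at an unadjusted p under 0.05, and without array 2 it was 55. For the 41 other tested genes named above, 19 calls were lost in 461 refits and 6 gained (*Sgs5*, *Sgs4* and *RN-tre*). The sign turned in 3, all of *Fbp2*, at -0.017 with arrays as separate values, -0.0089 with the extraction as a random block, and -0.027 to 0.044 without 1 array. Of the genes given as not passing, *Uev1A*, *alien*, *poe*, *Aos1*, *Rad23* and *Uch* had an adjusted p under 0.05 in 1 refit each, and *Rpn12* in 2. *Sumo* and *Nedd8* could not be tested over genes on all 4 arrays, and *Nedd8* not without arrays 2 or 3. No paired analysis was possible because the wild-type pool has no replicates of its own.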
